A study of Mus musculus with 2 samples.

Results

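Hematopoietic stem and multipotent progenitor cells were selected from droplet-based single-cell RNA sequencing of mouse bone marrow. They were cell barcodes that carried stem and progenitor transcripts, with chosen transcripts of several committed lineages under set limits. The limits did not cover T cell, natural killer or megakaryocyte genes. The selected cells numbered 111 of 12259 barcodes that passed quality filters. The null-labelled library (labelled Itgb3(-/-)), from C57BL/6 mice of 6 months with the genotype label Apoe(-/-), Itgb3(-/-), held 58 of its 2974 barcodes. The control-labelled library (labelled Itgb3(+/+)), with the label Apoe(-/-), Itgb3(+/+) and otherwise the same strain, age and tissue, held 53 of 9285. Both groups lacked Apoe by label, the lipoprotein gene whose loss gives mice high plasma cholesterol, and both carried the disease label atherosclerosis. Each group was 1 library, and the sources used here do not give how many animals stand behind it. No test between genotypes was therefore possible: differences are between these libraries, and 95% intervals reflect counting error alone.

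Hematopoietic stem cells sit at the top of blood formation. They are mostly quiescent, renew themselves, and give rise to multipotent progenitors, which cycle more and feed the megakaryocyte, erythroid, myeloid and lymphoid lineages. Interferons are known to act on mouse stem cells directly: they raise the surface protein Sca-1, encoded by Ly6a, and can bring quiescent cells into cycle. Integrin β3, the product of Itgb3, pairs with the Itga2b chain on megakaryocytes and platelets and with the Itgav chain on other cells, and both pairs bind matrix and plasma proteins.

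The cells were selected on 5 transcripts, whose levels are therefore a description and not a finding. Kit encodes the stem cell factor receptor, Cd34 a surface sialomucin, Adgrg1 an adhesion receptor, and Meis1 and Hlf encode transcription factors of stem cells. A barcode entered with a sum of 3 or more unique molecular identifiers (UMIs, counted transcript molecules) over the 5 genes, and with erythroid, basophil and mast cell, early B, monocyte, primary granule, S100 and hemoglobin transcripts under set limits. The sum was reached by 154 null-labelled and 372 control-labelled barcodes. Of these, 39 and 114 were kept out for erythroid or hemoglobin transcripts, a further 25 and 143 for granule or monocyte transcripts, and 32 and 62 for the other limits. Among members the sum had a median of 11 in the null-labelled library and 17 in the control-labelled library. At the edge of the rule, 3 members in each library had a sum of exactly 3, and 16 null-labelled and 18 control-labelled barcodes with a sum of 2 stayed outside. A list of 30 stem cell genes outside the rule stood at 2393 UMIs per 1000000 UMIs (counts per 1000000, CPM) in the null-labelled members with a sum of 3 and 2617 CPM in the null-labelled barcodes with a sum of 2. The same list stood at 644 CPM and 1205 CPM in the control-labelled barcodes with sums of 3 and 2. Without Ly6a and Ifitm1, which respond to interferons, it stood at 552 and 517 CPM in the null-labelled and 603 and 1082 CPM in the control-labelled barcodes.

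Some stem and progenitor transcripts outside the rule were found in part of the members of each library. Flt3, the receptor of multipotent progenitors, was found in 32 null-labelled and 26 control-labelled members, and Itga2b in 24 and 21. Mecom, a transcription factor of long-term stem cells, was found in 14 null-labelled and 19 control-labelled members. Adgrl4 and Myct1, both also known from vessels, and the mucin Muc13 stood furthest above the other barcodes in both libraries at once, a description since the same cells were selected on correlated genes. Adgrl4 was at 105 CPM in null-labelled members and 1.91 CPM in the other null-labelled barcodes, and at 161 CPM and 3.92 CPM in the control-labelled library. Myct1 stood at 80.7 and 1.29 CPM in the null-labelled library, and at 74.6 and 3.04 CPM in the control-labelled library. Others among the 15 leading genes were Flt3, the cell cycle kinase Cdk6, the transcription factors Gata2 and Ikzf2, Egfl7, Ctla2a and Ifitm1.

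Some members carried markers of other cells. Defining natural killer genes gave 411 UMIs in null-labelled members, 205 of them in 1 cell, against 8 UMIs in control-labelled members. Defining T cell genes gave 5 and 0 UMIs, and stromal genes 1 and 0. Defining B cell genes gave 2 UMIs in null-labelled members and 104 in control-labelled members, where 3 cells held 3 or more. The wider list of 10 B cell genes gave 160 and 297 UMIs, with 3 or more in 16 null-labelled and 12 control-labelled members. Of these UMIs, Ighm held 103 in 20 null-labelled and 125 in 16 control-labelled members, and Cd79b 55 in 30 and 58 in 22. The other null-labelled UMIs were 2 of Cd79a, and 7 genes of the list were at 0 there. Endothelial genes gave 36 and 4 UMIs, macrophage genes 1 and 21, and megakaryocyte genes 29 and 348, with 3 or more in 3 null-labelled and 7 control-labelled members. Neutrophil genes gave 59 and 74 UMIs, with 3 or more in 2 null-labelled and 10 control-labelled members. In all, 11 null-labelled and 5 control-labelled members held 3 or more UMIs of the T, natural killer, B, endothelial or macrophage set. With them left out, 434 genes in place of 428 were 2-fold or more higher and 471 in place of 476 lower, a choice made after seeing the data. The libraries shared 11 barcodes, of which 1 was a null-labelled member and 0 were members in both. Doublet scoring marked 5 null-labelled and 4 control-labelled members.

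Depth differed between the libraries and bears on every share. Null-labelled members held 1276594 UMIs in all, with a median of 19826 per cell (5342 to 72704) and 4395.5 genes. Control-labelled members held 683975 UMIs, with a median of 11914 (1285 to 29340) and 3540 genes. The other barcodes had medians of 9301.5 UMIs in the null-labelled and 4979 in the control-labelled library. Mitochondrial transcripts made up a median of 4.13% of UMIs in null-labelled members and 4.92% in control-labelled members, and 7 of 58 and 25 of 53 members lay above 5%.

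Itgb3, the gene that differs by label, was detected in members of both libraries and was higher in the null-labelled one. It had 67 UMIs in 28 null-labelled members (52.5 CPM), with at most 7 in a cell, against 13 UMIs in 10 control-labelled members (19.01 CPM), with at most 4 in a cell, a ratio of 2.76 (1.51 to 5.45). In both libraries most members had none, so the cells overlapped. In the other barcodes the order was the opposite, with 6.07 CPM in the null-labelled library and 22.3 CPM in the control-labelled library. After each member was thinned to 2000 UMIs, 6 of 58 null-labelled members (10.3%, 3.89 to 21.2) and 4 of 52 control-labelled members (7.69%, 2.14 to 18.5) kept an Itgb3 UMI, so at equal depth the shares lay within each other's intervals. Barcodes with B cell markers, which should have little Itgb3, kept one in 0.761% and 2.44% of cases at the same depth, and before thinning in 3.78% and 4.10% at median depths of 5703.5 and 2447.5 UMIs. Of the Itgb3 UMIs, 46 of 67 in null-labelled and 9 of 13 in control-labelled members lay in cells that also held Itga2b. The sources used here do not give the deleted stretch of the gene (ENSMUSG00000020689, mm10 chr11:104608000-104670476, plus strand), and 3′ counts from outside it check nothing. Because the order differed between members and other barcodes, and the counts cannot check the label, the genotypes are used as labels only.

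The integrin partners and Apoe were also measured. Itga2b stood at 82.3 CPM in null-labelled and 126 CPM in control-labelled members, a ratio of 0.654 (0.487 to 0.880). Itgav stood at 28.2 CPM and 17.5 CPM, with an interval that spanned 1 (0.817 to 3.39). Apoe, which neither genotype should carry intact by label, stood at 90.9 CPM with 116 UMIs in null-labelled members and at 231 CPM with 158 UMIs in control-labelled members, a ratio of 0.393 (0.307 to 0.503). Of 12 integrin and adhesion genes that passed the filter given below, 1 was 2-fold higher, Itgb3 itself, and 1 lower, the tetraspanin Cd9. Over all genes that passed it, 11.6% were higher and 12.9% lower. Cd9 stood at 48.6 CPM and 161 CPM. Itgb3 and Cd9 each passed through the library where it was high. The integrin α4 chain, Itga4, which holds progenitors in the marrow, was at 198 CPM in null-labelled and 116 CPM in control-labelled members, a ratio of 1.72 (1.33 to 2.24). Itga6 stood at a ratio of 0.600, Itgb1 at 1.15 and the homing receptor Cd44 at 1.08.

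Members made up 1.95% of the null-labelled barcodes (1.48 to 2.51) and 0.571% of the control-labelled barcodes (0.428 to 0.746), a ratio of 3.42 (2.31 to 5.06). The rule was also applied after thinning to 3000 UMIs, which leaves out 217 null-labelled and 2785 control-labelled barcodes of lower depth. It then held 24 members of 2757 null-labelled barcodes (0.871%) and 42 of 6500 control-labelled barcodes (0.646%), a ratio of 1.35. That ratio lay below the interval of the first one. No interval was computed for it, so a difference in share at equal depth is not shown. Among the same barcodes without thinning, a setting added after seeing the data, there were 58 (2.10%) and 51 (0.785%), a ratio of 2.68. With a limit of 5% in place of 10% mitochondrial UMIs the counts were 51 and 28, a ratio of 5.79. The direction turned when members with 3 or more UMIs of the T, natural killer or B cell lists, which hold Ccl5, were left out. Then 3 null-labelled (0.101%) and 20 control-labelled members (0.215%) remained, a ratio of 0.468. Ccl5 itself differed between the libraries, so this setting cannot decide the direction of the share.

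For the comparison of genes, UMIs were summed over the members of each library and divided by their total. A gene was tested, in the sense of being counted by size, when it reached 50 CPM in one library or the other and 30 UMIs in the sum of both. Of 3695 such genes, 428 (11.6%) were 2-fold or more higher in null-labelled members and 476 (12.9%) lower, and the median log2 ratio was -0.08. With TMM factors, a scaling that centres the bulk of genes, 558 were higher and 335 lower and the median became 0.12, a shift that bears on all ratios near 1. Without the CPM minimum and with 10 UMIs over both libraries, 1235 of 9591 genes (12.9%) were higher and 1451 (15.1%) lower. The gene lists below were chosen with earlier results of these data known, so their counts are descriptions to be read against these shares, and many of their named genes were picked after their values were seen.

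**Figure D1:**
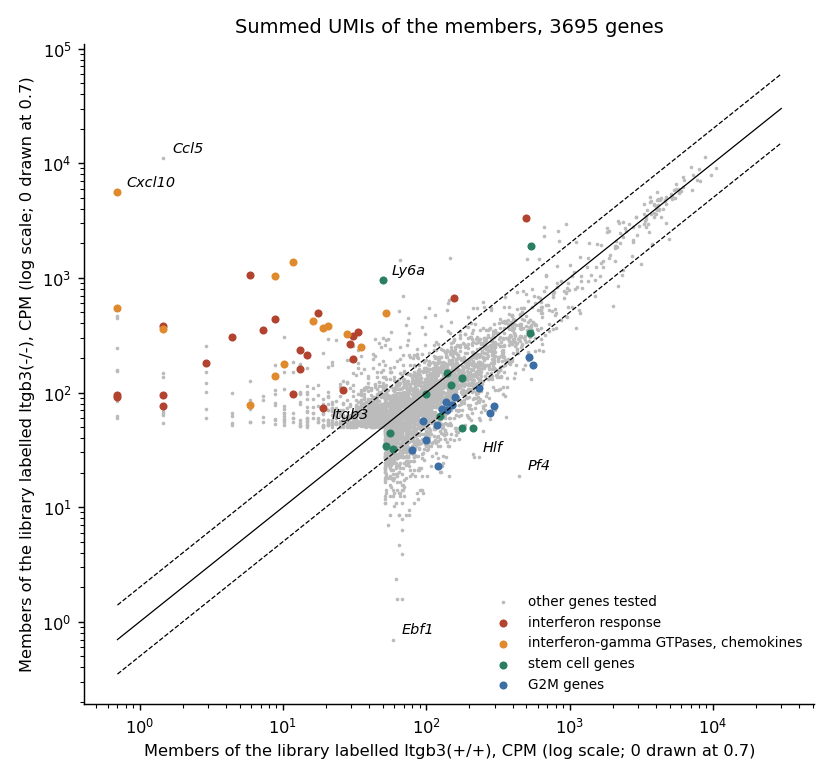
Level of each of 3695 genes, as CPM of summed UMIs on log axes, in null-labelled members (vertical) against control-labelled members (horizontal); the solid line marks equal levels and the dashed lines a 2-fold difference. Interferon genes lie far above the upper dashed line, with Ccl5 at 11084 CPM and Cxcl10 at 5569.5 CPM in null-labelled members, while Hlf, Pf4 and most G2M genes lie below the lower one.

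Interferon-induced transcripts stood far above the line. The list held 26 genes, of which 25 were in the features and 23 passed the filter, and 23 were 2-fold or more higher and 0 lower in null-labelled members. All but 2 of the 23 passed through the null-labelled library alone and so had to be higher there. Without the CPM minimum, 25 of 25 genes were higher, at a median log2 ratio of 3.86. Summed over the list, null-labelled members stood at 9589.6 CPM and control-labelled members at 929.9 CPM. Per cell, the list took 4.24 to 217 UMIs in 10000 in null-labelled members (median 92.4) and 0.568 to 24.4 in control-labelled members (median 9.38), so the lowest null-labelled cells overlapped the control-labelled ones. When members with 3 or more UMIs of T, natural killer or B cell lists, which include Ccl5 and Nkg7, were left out, 3 null-labelled and 20 control-labelled members remained, and 2 genes of the list passed the filter, neither of them 2-fold higher.

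Isg15, a ubiquitin-like modifier, had 626 UMIs in 51 null-labelled members (490.4 CPM) and 12 UMIs in 9 control-labelled members (17.5 CPM), a ratio of 27.9 (15.9 to 54.4). Rsad2, which encodes the antiviral enzyme viperin, had 1345 UMIs in 52 members at 1054 CPM and 4 UMIs in 4 members at 5.85 CPM, a ratio of 180.2 (70.2 to 662). Ifit3, an RNA-binding protein that blocks viral messages, had 481 UMIs in 41 null-labelled members and 1 UMI in the control-labelled members, a ratio of 258 (46.0 to 10200). The interferon regulatory factor Irf7 stood at 436 CPM and 8.77 CPM. Zbp1, a nucleic acid sensor, had 230 UMIs in 49 null-labelled members and 2 UMIs in 2 control-labelled members, a ratio of 61.6 (16.9 to 512). Ifitm3, which blocks virus entry, was the one with most transcripts in control-labelled members, at 3327 CPM in null-labelled and 499 CPM in control-labelled members, a ratio of 6.67 (5.97 to 7.47). Mx1 had 122 UMIs in null-labelled members and 0 in control-labelled members, at least 21.8-fold higher against a floor of 3 UMIs.

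Genes associated with interferon-gamma were also higher, with a similar list median but a ratio of list sums of 51.5 against 10.3. Their sum stood at 11517 CPM in null-labelled and 223.7 CPM in control-labelled members. Of its 14703 null-labelled UMIs, 7110 were of Cxcl10. Of 15 in the list, 14 passed the filter, 13 of them through the null-labelled library alone, and 14 were higher, with a median log2 ratio of 4.24. Gbp2, a guanylate-binding protein of cell defence, had 1746 UMIs in 54 null-labelled members (1368 CPM) and 8 UMIs in 6 control-labelled members (11.7 CPM), a ratio of 117 (59.2 to 271). Iigp1, an immunity-related GTPase, stood at 1037 CPM and 8.77 CPM. Gbp3, Gbp5 and Igtp of the same GTPase families stood at ratios of 26.4, 19.3 and 18.6. Cd274, the checkpoint ligand PD-L1, had 228 UMIs in 44 null-labelled members and 7 UMIs in 7 control-labelled members, a ratio of 17.5 (8.33 to 43.9), and the feedback inhibitor Socs1 stood at a ratio of 15.8. The regulator Irf1 was at 251 CPM in null-labelled and 35.1 CPM in control-labelled members.

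Chemokines were among the most abundant of these transcripts in null-labelled members. Ccl5 (ENSMUSG00000035042, chr11:83525778-83530518, minus strand), a chemokine of T cells, natural killer cells and inflamed tissue, had 14150 UMIs in 52 of 58 null-labelled members and 1 UMI in 1 of 53 control-labelled members, a ratio of 7581 (1361 to 299470). A null-labelled member had a median of 57.1 and at most 425 Ccl5 UMIs in 10000, and the 5 richest cells held 35.1% of all Ccl5 UMIs, so the transcript was spread over most cells. Cxcl10 (ENSMUSG00000034855, chr5:92346638-92348889), which draws activated T cells, had 7110 UMIs in 46 null-labelled members and 0 in control-labelled members, at least 1269.8-fold higher against a floor of 3 UMIs. Cxcl9 of the same family had 696 UMIs in 19 null-labelled members and 0 UMIs in control-labelled members, with 71.1% of them in 5 cells.

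Thinning to 2000 UMIs per cell took the depth gap out of these shares. Ccl5 was then found in 84.5% of null-labelled members (72.6 to 92.7) and 0 of 52 control-labelled members, which allows a share of up to 6.85% by the exact interval. Among barcodes with B cell markers the shares were 8.98% in the null-labelled and 0.438% in the control-labelled library, and among hemoglobin-rich barcodes 3.69% and 0.880%. Cxcl10 was found in 63.8% of null-labelled members (50.1 to 76.0), in 0 of 52 control-labelled members, and in 17.7% and 0 of 1597 of the B-marker barcodes. At least 3 UMIs of the interferon response list were held by 94.8% of null-labelled members (85.6 to 98.9) and 28.8% of control-labelled members (17.1 to 43.1), beside 91.8% and 30.3% of B-marker barcodes. The share of cells with an interferon signal was thus close to that of B-marker barcodes of the same library, while the shares with Ccl5 and Cxcl10 in null-labelled members lay above it.

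**Figure D2:**
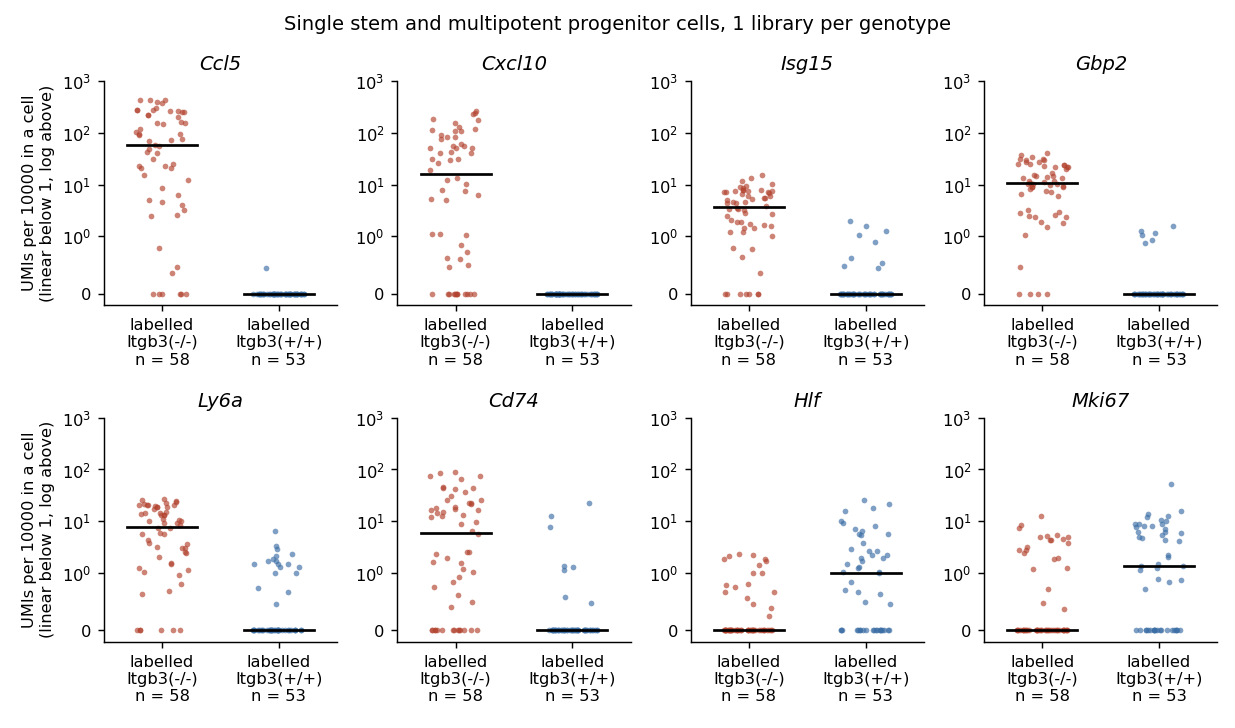
UMIs per 10000 in each cell for 8 genes in the 58 null-labelled members (left of each panel) and 53 control-labelled members (right), on an axis that is linear below 1 and logarithmic above; each point is a cell and each bar the median. Ccl5, Cxcl10, Isg15, Gbp2, Ly6a and Cd74 have medians above 0 in null-labelled members and at 0 in control-labelled members, and Hlf and Mki67 the other way round.

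The promoters of 3 genes of the interferon lists are shown because, among those with a promoter entry, their ratios lay furthest above 1 by the lower bound of the interval. They are taken from RefSeq on GRCm38.p6, 250 bases before to 50 after the start, 5′ to 3′ on the gene's strand. Capitals mark the motif of GAAA, any 2 bases and GAAA again, on either strand, a core that interferon-stimulated response elements share.
Cxcl10 (chr5:92348840-92349139, minus strand): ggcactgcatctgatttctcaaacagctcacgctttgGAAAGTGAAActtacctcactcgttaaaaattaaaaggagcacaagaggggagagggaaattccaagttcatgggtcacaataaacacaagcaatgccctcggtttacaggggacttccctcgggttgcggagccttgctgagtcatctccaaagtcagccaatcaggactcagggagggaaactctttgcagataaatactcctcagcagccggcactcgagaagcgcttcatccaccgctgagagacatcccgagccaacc
Cxcl9 (chr5:92328030-92328329, minus strand): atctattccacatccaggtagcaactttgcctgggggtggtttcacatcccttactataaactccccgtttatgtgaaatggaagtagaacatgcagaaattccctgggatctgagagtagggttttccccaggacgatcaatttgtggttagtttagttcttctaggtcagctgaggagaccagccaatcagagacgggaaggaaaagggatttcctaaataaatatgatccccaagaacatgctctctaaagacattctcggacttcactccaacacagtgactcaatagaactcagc
Rsad2 (chr12:26456403-26456702, minus strand): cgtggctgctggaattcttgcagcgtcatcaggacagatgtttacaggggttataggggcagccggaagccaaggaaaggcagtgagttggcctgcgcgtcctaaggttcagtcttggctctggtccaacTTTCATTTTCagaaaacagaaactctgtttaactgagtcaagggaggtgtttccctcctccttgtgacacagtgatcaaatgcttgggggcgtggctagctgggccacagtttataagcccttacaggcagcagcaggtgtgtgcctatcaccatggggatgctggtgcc
The motif occurred once in the Cxcl10 and once in the Rsad2 window, where it read on the opposite strand, and not in these letters in the Cxcl9 window. Of 29 promoters found for both interferon lists, which hold 41 genes, 21 (72.4%) held it, beside 943 of 27025 promoters in the table (3.49%) and 1 of 22 promoters of stem cell genes. The gamma-activated motif TTCNNNGAA was held by 9 of the 29 (31.03%) and by 8.47% of all. A match describes the letters and is not a site of binding.

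Antigen presentation was higher as well. MHC class I proteins show peptides to T cells, and of 13 genes for them and their peptide loading, 13 passed the filter and 8 were 2-fold or more higher. All but 1 passed in both libraries. B2m, the light chain, stood at 2939.9 CPM in null-labelled and 943 CPM in control-labelled members, a ratio of 3.12 (2.87 to 3.39). The loading factor Tapbp stood at 689 CPM and 68.7 CPM, a ratio of 10.0 (7.47 to 13.7), and the transporter Tap1 at 542 CPM and 104 CPM. H2-K1 and the immunoproteasome gene Psmb8 stood at ratios of 1.86 and 1.46, under 2-fold. MHC class II genes, usual in B cells, dendritic cells and macrophages, were 2-fold higher in 4 of 5 cases, 2 of them genes that passed through the null-labelled library alone. Cd74, the invariant chain, had 1817 UMIs in 44 null-labelled members and 45 UMIs in 8 control-labelled members, of which 24 lay in 1 cell, a ratio of 21.6 (16.1 to 29.8). H2-Aa had 281 UMIs in 35 null-labelled and 13 UMIs in 4 control-labelled members. Ciita, the master regulator of class II, had 4 UMIs in each library. Thinned, 48.3% of null-labelled members (34.95 to 61.8) and 3.85% of control-labelled members (0.469 to 13.2) held 3 or more UMIs of the class II list, beside 71.4% and 48.6% of B-marker barcodes. The wider B cell list is given above; its part in the class II counts was not tested.

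Receptors through which interferons act were present in both libraries. Ifngr1, a chain of the interferon-gamma receptor, was at 150 CPM in 53 null-labelled members and 70.2 CPM in 24 control-labelled members, a ratio of 2.14 (1.55 to 3.01). Of 10 genes of interferon receptors and signalling 7 passed the filter, with 4 higher and 0 lower, beside 11.6% and 12.9% over all genes. Through the null-labelled library alone 3 passed and so had to be higher. Of the 4 that passed in both, 1 was 2-fold higher. Ifnar1, which did not pass the filter, and Ifnar2, the chains of the type I receptor, stood at ratios of 2.27 (1.22 to 4.52) and 3.39 (2.25 to 5.30). The kinase Jak2 stood at 2.54, and Jak1, which both receptors use, at 0.922 (0.716 to 1.19).

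Inflammatory and emergency myelopoiesis genes followed the same order. Emergency myelopoiesis is the infection-driven output of myeloid cells, and 8 of its 8 genes that passed the filter were higher, 3 of them passing in both libraries. Cebpb, the transcription factor that carries it, stood at 270.2 CPM in 49 null-labelled members and 46.8 CPM in 25 control-labelled members, a ratio of 5.78 (4.02 to 8.58). Spi1, which encodes the myeloid and lymphoid factor PU.1, stood at 371 CPM and 93.6 CPM, a ratio of 3.97 (3.05 to 5.24). Stat3 stood at 2.803, Socs3 at 5.16 and the metallothionein Mt1 at 7.86. Saa3, an acute-phase protein, had 311 UMIs in 9 null-labelled members, 278 of them in 1 cell, and 0 in control-labelled members, beside 2887 CPM in the other null-labelled barcodes; it is thus the level of few cells. Of 7 NF-kB and inflammatory genes, 5 were higher, and 4 of these passed through the null-labelled library alone and had to be. The other 1 passed in both, the inhibitor Nfkbia at 333 CPM and 76.0 CPM. Birc3 stood at a ratio of 3.64 and the adhesion molecule Icam1 at 3.01. The shared receptor chain for granulocyte-macrophage factor, Csf2rb, had 221 UMIs in 49 null-labelled members and 6 UMIs in 6 control-labelled members, a ratio of 19.7 (8.92 to 54.4).

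**Figure D3:**
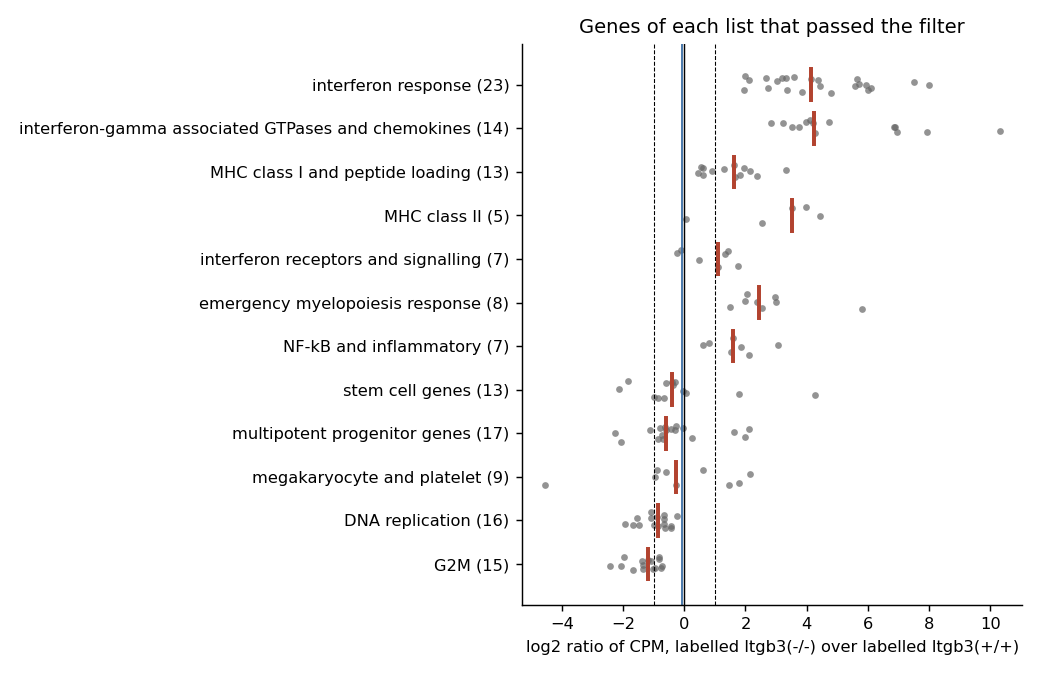
The log2 ratio of CPM, null-labelled over control-labelled members, for each gene of 12 lists that passed the filter (grey points, number in brackets), with the median of the list as a red bar; dashed lines mark 2-fold and the blue line the median of all genes at -0.08. The medians run from 4.24 for interferon-gamma associated genes to -1.17 for G2M genes.

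Beyond the interferon lists, Serpina3f, a serine protease inhibitor, had 599 UMIs in 47 null-labelled members and 0 in control-labelled members, at least 107-fold higher against a floor of 3 UMIs. AA467197 had 570 and 0 UMIs, at least 102-fold higher. Both were thus spread over many null-labelled cells. By contrast Gzma, a granzyme of natural killer cells, had 193 of its 199 null-labelled UMIs in 1 cell and 0 UMIs in control-labelled members. In the other barcodes, null-labelled first, AA467197 stood at 415 and 83.7 CPM and Serpina3f at 86.3 and 1.43 CPM. At the low end, most of the genes with the smallest ratios were counted in many control-labelled cells. Acyp1, an acylphosphatase, had 2 UMIs in 2 null-labelled members and 46 UMIs in 30 control-labelled members, a ratio of 0.0233 (0.00274 to 0.0891). Itih5 had 3 and 42 UMIs, a ratio of 0.0383 (0.00759 to 0.120). Nrgn, a calmodulin-binding protein, had 35 UMIs in 17 null-labelled and 159 UMIs in 40 control-labelled members, a ratio of 0.118 (0.0794 to 0.171). Trim37, Shisa8, Pcbd2 and Oxct1 stood at ratios of 0.0582, 0.0731, 0.0932 and 0.131. All genes from Acyp1 to Oxct1 were also lower in the other null-labelled barcodes than in the other control-labelled ones. Acyp1 stood there at 8.62 and 46.7 CPM, Pcbd2 at 12.2 and 53.5 CPM, and Shisa8 at 1.20 and 1.89 CPM. Cd79a of the B cell receptor had 2 UMIs in 1 null-labelled member and 43 UMIs in 3 control-labelled members.

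Stem cell genes went both ways. Of 30 in the list, 13 passed the filter, 2 were higher and 2 lower, beside 11.6% and 12.9% over all genes. The median log2 ratio was -0.40. Both higher genes are known to respond to interferons. Ly6a (ENSMUSG00000075602, chr15:74994877-74998031, minus strand), which encodes Sca-1, had 1223 UMIs in 52 null-labelled members and 34 UMIs in 18 control-labelled members, a ratio of 19.3 (13.7 to 27.96). Ifitm1 stood at 1891 CPM and 542 CPM, a ratio of 3.49 (3.12 to 3.90). Without these genes the list stood at 1261 CPM in null-labelled and 2028 CPM in control-labelled members. Thinned, Ly6a was held by 62.1% of null-labelled (48.4 to 74.5) and 13.5% of control-labelled members (5.59 to 25.8), beside 41.6% and 7.58% of B-marker barcodes.

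Several other genes of primitive stem cells had ratios below 1, and others stood near 1. The 2 that counted as lower, Angpt1 and Cd27, passed the filter through the control-labelled library alone and so had to be lower, and Mecom and Procr did not pass it. Angpt1, a niche factor made by stem cells, had 62 UMIs in 25 null-labelled members (48.6 CPM) and 146 UMIs in 44 control-labelled members (213 CPM), a ratio of 0.228 (0.166 to 0.308). Cd27, a receptor of the tumor necrosis factor family, stood at a ratio of 0.277 (0.201 to 0.378). Mecom had 18 and 30 UMIs, a ratio of 0.321 (0.169 to 0.596), and Procr, the protein C receptor of stem cells, 7 and 10 UMIs with an interval that spanned 1 (0.121 to 1.09). Runx1, Gata2 and Tmem176b stood at 1.05, 0.977 and 1.06, near 1. Hoxa9, a Hox factor of progenitors, stood at 34.5 CPM in 25 null-labelled members and 52.6 CPM in 26 control-labelled members, with an interval that spanned 1 (0.412 to 1.05).

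The rule genes chose the members, so their levels are a description. Kit stood at a ratio of 0.703, Cd34 at 0.470, Adgrg1 at 0.549 and Meis1 at 0.483. Hlf (ENSMUSG00000003949, chr11:90336536-90390895, minus strand) had 35 UMIs in 18 null-labelled members and 147 UMIs in 33 control-labelled members, a log2 ratio of -2.97. Of the control-labelled Hlf UMIs, 113 lay in the 25 members with over 5% mitochondrial UMIs, and of the null-labelled ones 11 lay in 7 such members. With the limit at 5% the log2 ratio of Hlf was -2.13. In settings added after seeing the data it was -4.18 without members that held Itga2b and -4.26 without members that held Mki67 or Top2a. In the null-labelled library 13 of 58 members held all 5 rule genes, and in the control-labelled library 25 of 53.

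Multipotent progenitor genes were split, with 3 of 17 higher and 3 lower, beside 11.6% and 12.9% over all genes. Plac8 was at 2583 CPM in null-labelled and 833 CPM in control-labelled members, and Cd53 and Spi1 were also higher. Cd48, a marker of multipotent progenitors, had 44 UMIs in 26 null-labelled and 98 UMIs in 31 control-labelled members, a ratio of 0.241 (0.165 to 0.347), and Nkg7 stood at 0.210. Flt3 stood at 0.622 (0.451 to 0.858), Cdk6 at 0.600 (0.524 to 0.688) and Myc at 0.967 (0.679 to 1.39).

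Cell cycle genes were lower in null-labelled members. Of 15 genes of the G2 and M phases that passed the filter, 0 were higher and 10 lower, with a median log2 ratio of -1.17. Of 16 DNA replication genes 0 were higher and 6 lower, with a median of -0.86. Through the control-labelled library alone 3 G2M and 5 DNA replication genes passed; of those that passed in both, 7 of 12 and 2 of 11 were lower. Mki67, the proliferation marker, had 259 UMIs in 22 null-labelled members (203 CPM) and 356 UMIs in 33 control-labelled members (520.5 CPM), a ratio of 0.390 (0.331 to 0.459). Top2a, which untangles chromosomes, stood at 175 CPM and 558 CPM, a ratio of 0.314 (0.265 to 0.371). Tyms and Uhrf1 of DNA synthesis stood at 0.263 and 0.342, while Mcm6 of the replication helicase was at 0.744 and Tipin at 0.855. Ezh2, a histone methyltransferase active in cycling cells, had 37 UMIs in 20 null-labelled members and 144 UMIs in 43 control-labelled members, a ratio of 0.138 (0.0932 to 0.199). It was also lower in the other barcodes, at 24.7 CPM and 158 CPM.

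At 2000 UMIs per cell, 29.3% of null-labelled members (18.1 to 42.7) and 53.8% of control-labelled members (39.5 to 67.8) held 3 or more G2M UMIs, beside 15.5% and 28.2% of B-marker barcodes. For DNA replication the shares were 34.5% (22.5 to 48.1) and 67.3% (52.9 to 79.7). With a marker sum of 5 or more, 5 G2M genes were lower in place of 10. Of the G2M UMIs, 153 of 1617 in null-labelled and 1034 of 2213 in control-labelled members lay in members with over 5% mitochondrial UMIs. Without those members 9 of 15 G2M genes were lower, with a median log2 ratio of -1.36, and 12 of 17 DNA replication genes, with a median of -1.32. Among cell cycle inhibitors, Cdkn1a, the p21 inhibitor, had 130 UMIs in 38 null-labelled and 10 UMIs in 7 control-labelled members, a ratio of 6.97 (3.67 to 14.9). Btg1 stood at 2.14 and Cdkn1b, the p27 inhibitor, at 1.03 (0.707 to 1.53). Trp53, the p53 gene upstream of Cdkn1a, was at 57.2 CPM and 235 CPM, a ratio of 0.243 (0.182 to 0.322).

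Lineage transcripts at low level are usual in multipotent cells, and they differed in kind. Pf4, platelet factor 4, had 24 UMIs in 6 null-labelled members and 303 UMIs in 16 control-labelled members, of which 272 lay in 5 cells, a ratio of 0.0424 (0.0268 to 0.0644). The thrombin receptor F2r was higher, with 156 UMIs in 29 null-labelled and 19 UMIs in 11 control-labelled members, a ratio of 4.40 (2.72 to 7.504), as was P-selectin, Selp, at 3.44. Of 9 megakaryocyte genes 3 were higher and 1 lower, beside 11.6% and 12.9% over all genes. Each of these passed through the library where it was high. With 10 UMIs and no CPM minimum, 3 of 15 were higher and 5 lower. Of 7 lymphoid priming genes 2 were higher, such as Il2rg at 2.24, and 3 lower, beside the same shares over all genes. Through the control-labelled library alone 3 passed. Of the 3 that passed in both, 2 were higher and 1 lower. With scored doublets removed, 4 passed the filter, with 2 higher and 0 lower, and the median log2 ratio became 0.84 in place of -0.98. Ebf1, a B lineage factor, had 0 UMIs in null-labelled members and 40 UMIs in 5 control-labelled members, at least 24.9-fold lower against a floor of 3 UMIs. Of 6 myeloid commitment genes 3 were higher, such as Csf2rb and Ms4a6c at 5.43, beside 11.6% over all genes. Through the null-labelled library alone 2 passed, Csf2rb among them, and so had to be higher. Of the 4 that passed in both, 1 was higher. Without the CPM minimum 5 of 14 were higher and 5 lower. Lysozyme Lyz2 had 120 UMIs in 14 null-labelled and 96 UMIs in 41 control-labelled members.

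Genes mutated in clonal hematopoiesis, the expansion of blood clones with age, were 2-fold higher in 2 of 14 cases and lower in 3 (Trp53, Ezh2 and Idh2), beside 11.6% and 12.9% over all genes. Both higher genes passed through the null-labelled library alone. Tet2, a DNA demethylase, had 117 UMIs in 49 null-labelled members (91.6 CPM) and 14 UMIs in 13 control-labelled members (20.5 CPM), a ratio of 4.48 (2.56 to 8.44). Jak2 was the other higher gene, and Idh2 stood at 0.271 (0.208 to 0.352). Dnmt3a was at 33.7 CPM in 30 null-labelled and 59.9 CPM in 30 control-labelled members, a ratio of 0.562 (0.358 to 0.884), and Asxl1 at 0.784. Of 13 cholesterol efflux genes only Apoe and Npc2 reached the filter. Abcg1, a sterol exporter, had 13 and 30 UMIs, a ratio of 0.232 (0.111 to 0.459), and Abca1 had 8 and 7 UMIs.

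Stress and survival genes differed in part. Of 12 mitochondrially encoded genes 5 were lower and 0 higher, with mt-Nd4 at a ratio of 0.425 and mt-Atp6 at 0.866. Heat shock genes were lower in 3 of 6 cases, such as Hspd1 at 0.369 and Hsp90aa1 at 0.461. The anti-apoptotic Bcl2 stood at 47.0 CPM and 136 CPM, a ratio of 0.346 (0.246 to 0.483), and the pro-apoptotic Bcl2l11 at 77.5 CPM and 8.77 CPM, a ratio of 8.84 (3.92 to 24.7). Of 12 immediate early genes, which also respond to tissue dissociation, 2 were higher and 2 lower, such as Fos at 0.425. Over all genes the shares were 11.6% and 12.9%.

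The members were not uniform within a library. Clustered alone, the null-labelled members formed clusters of 24, 18 and 16 cells and the control-labelled ones clusters of 29 and 24, and the genes that define them are descriptions. Null-labelled cluster 1 was led by Mpo, Ly86 and Cybb, and 20 of its 24 cells held Flt3. Null-labelled cluster 2 held Hlf in 11 of 18 cells, no Mki67 UMI, and G2M genes at 81.2 CPM, with Ccl5 at 21250 CPM. Null-labelled cluster 3 was led by Samd14, Rab27b and F2r, held Itga2b in 13 of 16 cells and Itgb3 at 136 CPM, and had the lowest interferon list sum of the 3 at 5003 CPM. Control-labelled cluster 1 held Hlf in 23 of 29 cells, Ly6a among its leading genes and no Itgb3 UMI. Control-labelled cluster 2 was led by Cenpf, Pf4 and Hmmr and held G2M genes at 5085 CPM and Itgb3 at 33.3 CPM.

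Set side by side, the interferon list sum of every null-labelled cluster, from 5003 to 11500 CPM, lay above both control-labelled clusters at 1187 and 737 CPM. The clusters with most Hlf were null-labelled cluster 2 at 73.5 CPM and control-labelled cluster 1 at 382 CPM. Between these, G2M genes stood at 81.2 CPM and 771 CPM and DNA replication genes at 484 CPM and 3130 CPM. Ly6a stood at 1454 CPM and 102 CPM there. The sums over all members therefore mix clusters of different kind, and how much of a ratio comes from the mix was not tested.

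**Figure D4:**
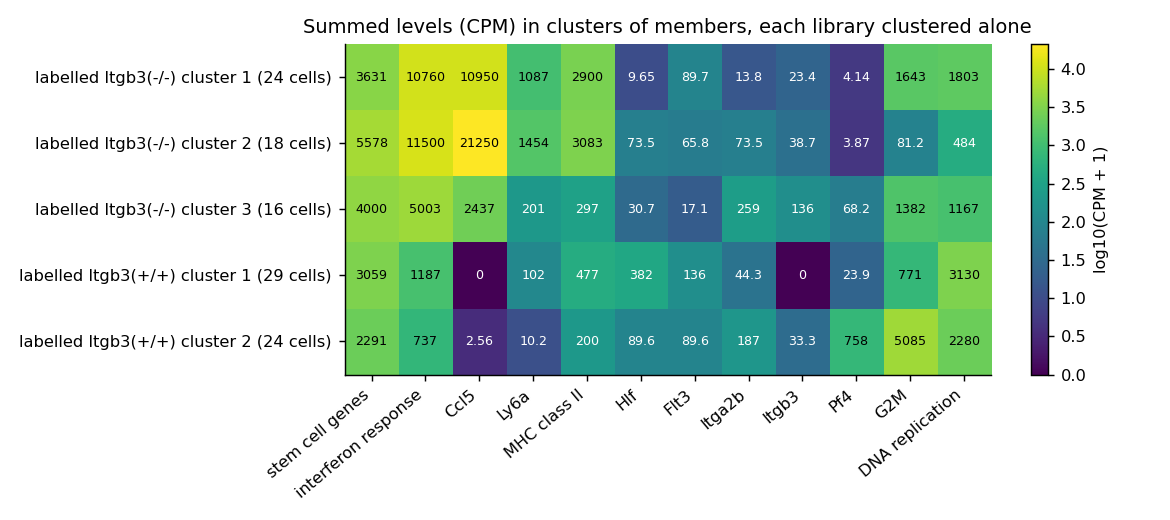
Level in CPM of 12 genes or gene lists (columns) in clusters of members (rows), each library clustered alone, null-labelled clusters above control-labelled ones; colour is log10 of CPM + 1. The interferon list is at 5003 CPM or more in each null-labelled cluster, and Itgb3 is highest in the Itga2b-rich null-labelled cluster 3.

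Other barcodes of the same libraries give the setting of these ratios. The interferon response list had a median log2 ratio of 4.15 in the members, 3.21 in B-marker barcodes and 3.90 in hemoglobin-rich barcodes. Among barcodes that reached the marker sum, it was 4.08 in those kept out for erythroid or hemoglobin transcripts. It was 4.62 in those kept out for granule or monocyte transcripts. The direction was thus shared by all 5 sets. Chemokines varied between sets more. In the null-labelled library Ccl5 stood at 11084 CPM in members, 4972 CPM in the granule or monocyte type, 1284 CPM in B-marker barcodes, 116 CPM in hemoglobin-rich barcodes and 81.8 CPM in the erythroid type. Cxcl10 stood at 5569.5, 2686, 788, 209 and 109 CPM in the same order of sets. Ly6a stood at 958 CPM in members and 600.3 CPM in B-marker barcodes, and at 198 CPM and 50.4 CPM in the granule or monocyte type and the erythroid type. The G2M list had a median log2 ratio of -1.17 in members, -0.43 in the erythroid type and 0.13 in the granule or monocyte type. It was -0.97 in B-marker and -0.20 in hemoglobin-rich barcodes. The medians over all tested genes of these sets, in the same order, were -0.08, -0.21, 0.08, 0.01 and -0.57. Whether a difference between sets exceeds that between libraries could not be tested with 1 library per genotype.

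**Figure D5:**
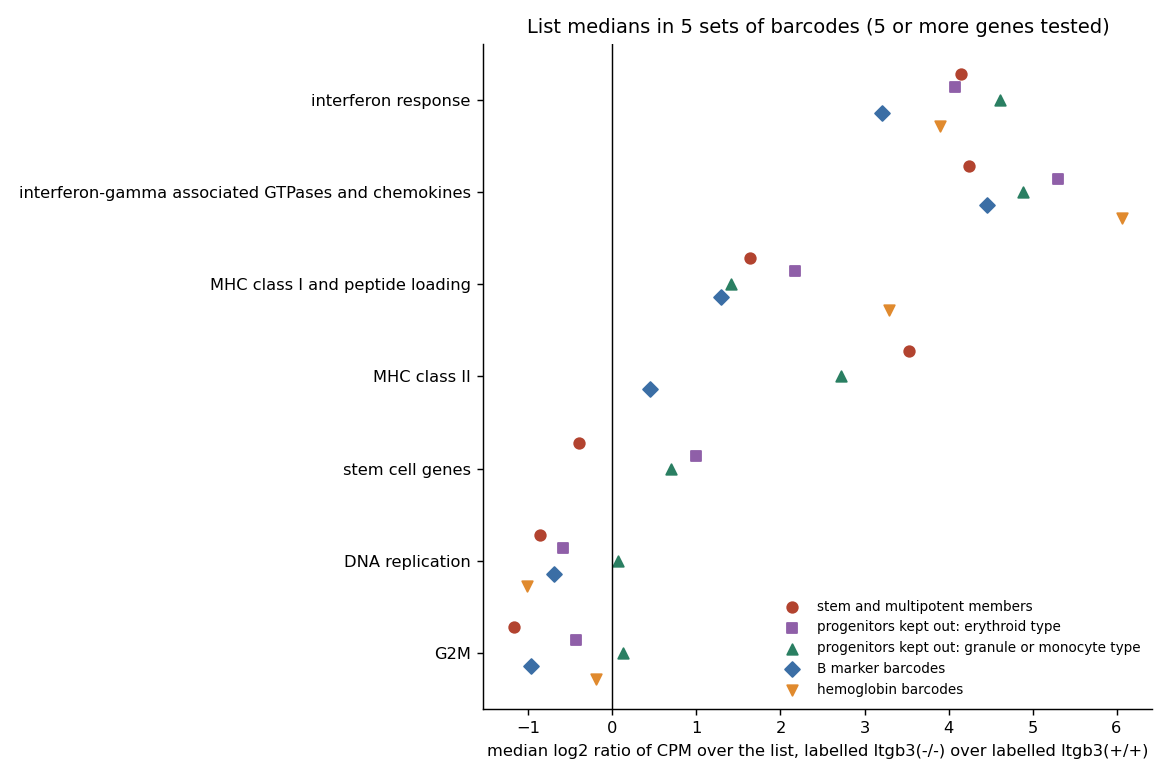
Median log2 ratio of CPM, null-labelled over control-labelled library, of 7 gene lists in the members and in 4 other sets of barcodes, drawn where 5 or more genes of the list passed the filter in that set. The interferon lists lie above 3 in all 5 sets, and G2M genes lie lowest in the members at -1.17.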

How the data were processed

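The authors deposited UMI counts per gene and cell barcode for 2 libraries of 10x 3′ RNA sequencing, made with Cell Ranger 3.0 on mm10 per the submitters' processing notes, which also name Seurat. The count files give software version 3.1.0 per the file headers. The sources used here give no other upstream settings. Barcodes with at least 200 genes and at most 10% mitochondrial UMIs were kept, which left 2974 of 4281 null-labelled and 9285 of 12764 control-labelled barcodes. Doublets were scored with Scrublet in scanpy 1.11.5 (71 null-labelled and 690 control-labelled) and left in, with their removal as an alternative.

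Counts were summed over members, given as CPM, and compared by size (2-fold, 50 CPM in either library, 30 UMIs over both), with exact binomial intervals at 95% that cover counting error only. No test was made, with 1 library per genotype. B-marker barcodes hold at least 3 UMIs of B cell markers, and hemoglobin-rich ones at least 20% hemoglobin UMIs. The members and lists were chosen with earlier results of these data known. Genes named by rule were the rule genes, a fixed set around Itgb3, the 12 highest and 12 lowest by the interval bound nearest 1, examples of each list, and the 15 highest over other barcodes. Other list genes and the per-cell counts were chosen after their values were seen. Gene coordinates are from GENCODE on mm10. Members were clustered per library by the Leiden method. Python 3.11.15, numpy 2.4.6, scipy 1.17.1, pandas 2.3.3, matplotlib 3.10.9 and edgeR 4.0.16 (TMM factors only) were used, and the comparison was checked on simulated counts. Alternatives changed the cell filters, the rule, the depth, the scaling, the fold and the gene filter. Values of some genes are not reported here.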

Additional observations from a re-analysis of the deposited data

Results flagged for a closer look

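Itgb3 differed in direction between members and other barcodes. Its log2 ratio, null-labelled over control-labelled, was 1.47 in members and -1.88 in the other barcodes, where it had 203 UMIs (6.07 CPM) in the null-labelled and 1466 UMIs (22.3 CPM) in the control-labelled library. The difference was not tested.

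Procr, the stem cell protein C receptor, had a log2 ratio of -1.42 in members, from 7 null-labelled and 10 control-labelled UMIs, and of 4.03 in the other barcodes, from 83 UMIs (2.48 CPM) and 10 UMIs (0.152 CPM). The ratio in the other barcodes was 16.3 (8.45 to 35.3). In members the interval spanned 1, and the difference was not tested.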

How the results depend on the processing

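The log2 ratio of member shares, 1.77 as reported, was 2.53 with a limit of 5% mitochondrial UMIs. It was 0.43 with the rule applied after thinning to 3000 UMIs. It was -1.09 when members with 3 or more T, natural killer or B list UMIs were left out. The last setting selects on Ccl5, which itself differed between the libraries. That exclusion, which left 3 and 20 members, gave 58 higher and 199 lower genes, with higher counts of 0 of 2 interferon response, 3 of 3 interferon-gamma, 3 of 6 MHC class I and 1 of 1 emergency myelopoiesis genes, and lower counts of 1 of 1 G2M and 1 of 2 DNA replication genes; 0 MHC class II and 0 NF-kB genes passed the filter, so their counts of 0 say nothing. Under it Acyp1 (0.15), Itih5 (0.53), Pcbd2 (0.15), Mecom (0.047), Ifitm1 (-0.22) and Cd74 (-0.19) reversed on the log2 scale. The values of Acyp1, Itih5, Pcbd2 and Mecom rest on 3 or fewer null-labelled UMIs, counted or set by the floor. For Mecom no null-labelled UMI remained. The sign of these values thus does not show that a gene became higher. Thinned to 2000 UMIs, 131 genes were higher and 153 lower, with 11 interferon response, 2 emergency myelopoiesis and 1 NF-kB gene higher, and 3 G2M and 1 DNA replication gene lower; fewer genes passed the filter there. A minimum of 20 CPM gave 760 higher and 823 lower and 11 NF-kB genes, and 10 UMIs alone 1235, 1451 and 12. A fold of 3 gave 242 higher, 166 lower, 4 G2M and 2 DNA replication genes. Without members holding Mki67 or Top2a, 245 genes were lower, 3 NF-kB genes higher, and 0 G2M and 1 DNA replication gene lower. A marker sum of 5 or more gave 5 lower G2M genes. Lower DNA replication genes numbered 12 with 5% mitochondrial UMIs, 13 without the 5 deepest members of each library and 10 as a mean over cells. Where no cause is given, it was not tested. Of 882 values for 58 named genes, 700 stayed within their interval, 176 moved and 6 reversed.

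No paired analysis was possible because each genotype is 1 library. Leaving out a replicate was not possible either. The libraries cannot be told apart from the genotypes: any difference in handling between them goes with the label. Depth limits the rarer genes, such as Procr and Mecom, and the null-labelled members were the deeper ones.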

Other observations

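Several gene groups were not described above, and their counts stand beside 11.6% higher and 12.9% lower over all genes. Of 4 TGF-beta and TNF genes that passed the filter 2 were higher and 0 lower, both passing through the null-labelled library alone, of 6 cytokine receptor genes 3 and 0, all 3 of which passed through the null-labelled library alone, and of 6 homing and niche receptor genes 0 and 1. Imprinted genes, often named for quiescent stem cells, gave 0 genes that passed the filter, at a sum of 6.27 CPM in null-labelled and 20.5 CPM in control-labelled members. Of 2 erythroid commitment genes 0 were higher and 1 lower, in a lineage that the rule limits.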
